A study of Mus musculus with 8 samples.

Results

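Motor proteins of microtubules were followed in the ageing mouse brain through 56 protein-coding genes, 56 of the 22430 genes listed in the count table. They are the genes whose symbol starts with Kif, Kifc or Klc followed by a digit, or with Dync. The set and the gene lists used below were chosen with earlier results of these data known. RNA was taken from 1 brain hemisphere of each of 8 male mice (tissue labelled whole brain) of the C57Bl/6JRj strain, with 4 mice in young adulthood at 6 months (6m) and 4 in old age at 24 months (24m). The labels name no treatment or transgene. Polyadenylated RNA was sequenced as paired reads from directional libraries, and the values used here are whole-number counts of reads per gene.

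Kinesins are motors that step along microtubules, most of them towards the growing plus end. Because axonal microtubules point their plus ends away from the cell body, kinesins carry vesicles, mitochondria and RNA outward, and cytoplasmic dynein, which steps towards the minus end, carries endosomes and signals back. Other kinesins assemble the spindle of dividing cells, and a further set, with a second dynein, serves cilia, which in the brain line the ventricles and also occur singly on neurons and astrocytes. Each of the 56 genes was placed in 1 role. The transport motors comprised 24 genes (kinesin-1 heavy and light chains, kinesin-2, kinesin-3, the KIF21 motors and the subunits of dynein 1), the mitotic motors 13 and the cilium motors 10. The remaining 9 genes were Kif2a and Kif2b, the minus-end directed Kifc2 and Kifc3, and 5 other kinesins.

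Library totals ran from 63460940 to 103462414 counts, and the deepest library was 24m replicate 1. Replicates of one age differed well beyond counting error, by a chi-square of 8.24 to 425 per degree of freedom over 12 pairs. The 3 pairs that held 24m replicate 1 gave 182 to 425, whereas the other 9 pairs gave 8.24 to 61.8, so that library stood apart. Results that rest on it are therefore given with and without it. A gene entered the test, edgeR's quasi-likelihood test, when 4 or more libraries each held over 5 of its counts, which left 16730 genes, 52 of them motors. Calls required both an adjusted p (Benjamini-Hochberg) no higher than 0.05 and a change of at least 0.58 in log2, up or down. On this rule 25.3% of all tested genes were called higher at 24m and 18.3% lower, and 32.7% and 29.9% passed on adjusted p alone. In 28.4% of all tested genes the 4 libraries of 24m lay above the 4 of 6m, and in 26.8% they lay below. Levels are given as CPM, counts scaled to a common library size with TMM (trimmed mean of M values) factors. Scaling by library totals instead shifted the fold changes of all tested genes by 0.21 at their median (log2). Each library came from its own mouse, so p-values refer to the spread between these 8 animals. Neuronal markers were abundant in every library: the summed level of 6 such genes was 2568 to 2654 CPM at 6m and 2398 to 2871 CPM at 24m.

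Motors were called in both directions, at shares near those of all tested genes. Of the 52 tested motors, 15 were called higher and 8 lower at 24m, that is 28.8% and 15.4%, against 25.3% and 18.3% of all tested genes. The aged libraries lay wholly above the young in 26.9% of the tested motors and wholly below in 23.1%, against 28.4% and 26.8%. The median log2 fold change was -0.08, against -0.0034 over all tested genes, and its sign turned with library totals (0.14) and on quantile-normalized counts with DESeq2 (0.05). The roles divided unevenly. Among the 24 transport motors 12 were higher and 3 lower, and the median was 0.53 in log2. With the trend over gene length removed, as described below, 9 were higher and 6 lower, with a median of 0.29. Among the 12 tested mitotic motors 1 was higher and 2 were lower, with a median of -0.26 (-0.05 with library totals), and 10 of the 12 fold changes were negative. Of the 10 cilium motors 0 were higher and 2 lower, with a median of -0.19 (edgeR; 0 were higher also at an unadjusted p under 0.05 and with DESeq2). Without 24m replicate 1 the transport motors gave 12 higher and 2 lower with a median of 0.63, and the mitotic motors 1 higher and 2 lower with a median of -0.40. Together the 56 genes took 0.556% to 0.599% of all counts in the 6m libraries and 0.605% to 0.813% in the 24m libraries.

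**Figure D1:**
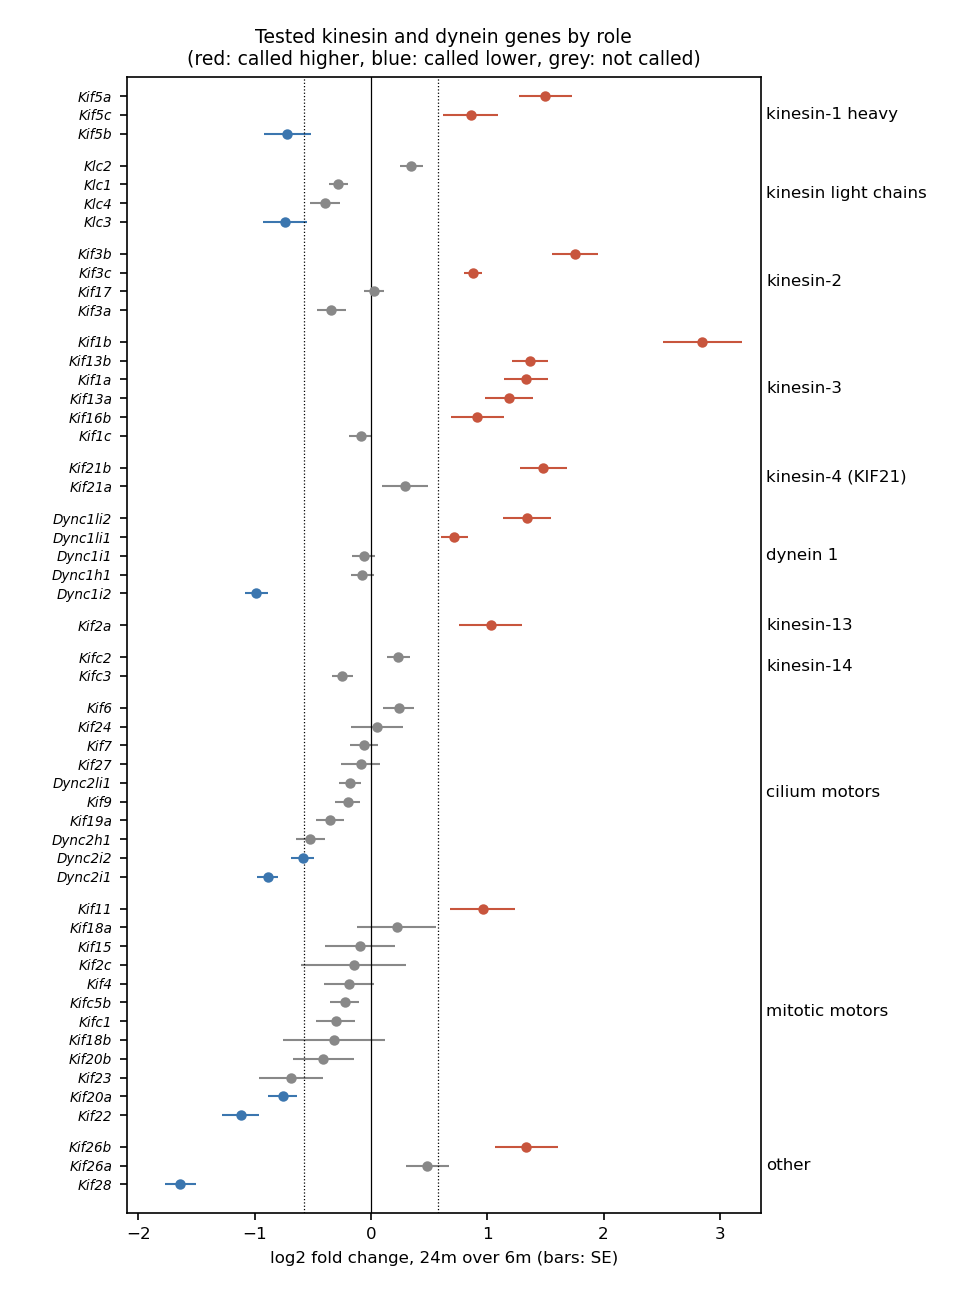
Log2 fold change (24m over 6m, horizontal axis) with its standard error for the 52 tested motor genes, grouped by role; red points were called higher, blue points lower and grey points were not called, and dotted lines mark the fold threshold of 0.58. Red points gather in the kinesin-1, kinesin-2 and kinesin-3 rows, from Kif5c at 0.86 to Kif1b at 2.85, while 10 of 12 mitotic motors lie left of 0.

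The kinesin-1 heavy chains, which form the motor of the main outward carrier of the axon, changed in opposite directions. Kif5a, the form largely restricted to neurons (chr10:127060993-127103180, minus strand, GRCm39), stood at 368, 528, 517 and 485 CPM in 6m replicates 1 to 4 and at 769, 1366, 1509 and 1717 CPM in 24m replicates 1 to 4. All 4 aged libraries lay above all young ones, and 24m replicate 1 was the lowest of the aged. Its fold was 2.83, or 1.5 ± 0.23 in log2 (SE, n = 4 per age; edgeR adjusted p = 0.000484). Kif5b, the form made by most cell types, was at 134, 100.4, 115 and 87.0 CPM at 6m and at 44.1, 83.3, 59.9 and 77.3 CPM at 24m. Here the aged libraries lay below the young without overlap, at -0.72 ± 0.20 in log2 (edgeR adjusted p = 0.011). The Kif5b call was lost without 24m replicate 1, its lowest library, where the value was -0.56 (edgeR adjusted p = 0.00677, short of the fold threshold), and under scaling by library totals (-0.49).

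Kif5c, the other neuronal heavy chain, measured 111, 83.0, 86.9 and 83.6 CPM at 6m and 90.5, 172, 171 and 228 CPM at 24m. It was called higher by 0.86 ± 0.24 in log2 (edgeR adjusted p = 0.0102), but the ages overlapped, since 24m replicate 1 lay among the young libraries. The Kif5c call was lost with the trend over gene length removed (0.24, edgeR adjusted p = 0.214). Of the kinesin light chains, which join the heavy chains to cargo, Klc3 alone was called, with 49.4, 39.3, 44.5 and 49.2 CPM at 6m and 38.5, 26.3, 25.3 and 19.0 CPM at 24m. Its aged libraries all lay below the young, by a log2 value of -0.74 ± 0.19 (edgeR adjusted p = 0.00729), but the call was lost with library totals (-0.53), and 34.4% of its exonic bases are shared with Ercc2 on the other strand. Klc1 (-0.28), Klc2 (0.35) and Klc4 (-0.40) passed on adjusted p in edgeR (0.0151, 0.011 and 0.0247) and missed the fold threshold. On quantile-normalized counts with DESeq2, Klc2 was called higher (0.73, adjusted p = 8.08e-48) and the sign of Klc1 turned (0.17, adjusted p = 0.0281). Summed over the genes, the heavy chains went from 613 to 718 CPM at 6m to 904 to 2023 CPM at 24m, a ratio of the means of 2.33. The 4 light chains went from 1974 to 2151 CPM to 1691 to 2030 CPM, a ratio of 0.905.

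**Figure D2:**
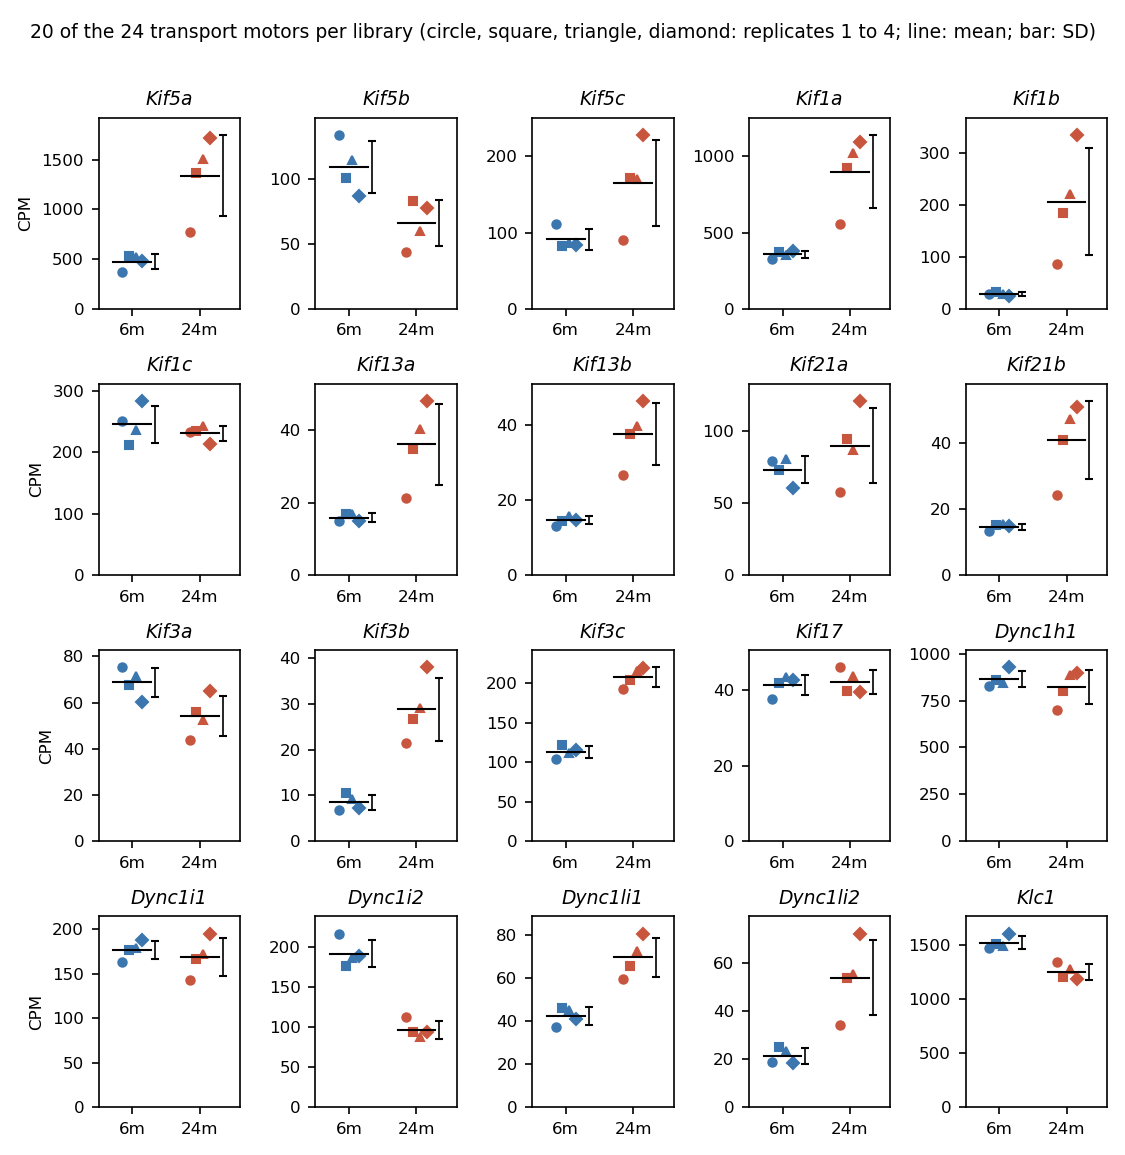
TMM-scaled level in CPM (vertical axis, from 0) of 20 of the 24 transport motors in each library of 6m (blue) and 24m (red); the symbol gives the replicate, the black line the mean and the bar the SD of 4 libraries. In panels such as Kif5a, Kif1a, Kif1b and Kif21b the aged libraries all lie above the young, with the circle of 24m replicate 1 the lowest of them, whereas Dync1i2 lies lower at 24m and Dync1h1 overlaps.

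Kinesin-3 motors, fast carriers of vesicles, gave the highest median of the roles with more than 1 tested gene (1.26). Of 6 genes 5 were higher and 0 lower, against 25.3% and 18.3% of all tested genes (edgeR). At an unadjusted p under 0.05 in edgeR and with DESeq2, 0 were lower too. With the trend over gene length removed, 4 were higher and the median was 0.79. Kif1b, which carries mitochondria and precursors of synaptic vesicles (chr4:149260618-149410343, minus strand, GRCm39), showed the largest change of all tested motors. It was at 27.8, 32.8, 29.0 and 25.0 CPM at 6m and at 86.9, 184, 221 and 335 CPM at 24m. The lowest aged library exceeded the highest young one by a wide margin, and the fold was 7.21, or 2.85 ± 0.34 in log2 (edgeR adjusted p = 0.000146). Kif1a, the carrier of synaptic vesicle precursors, was far more abundant, at 328, 371, 353 and 377 CPM against 555, 921, 1025 and 1097 CPM. It too was separated by age, at a log2 value of 1.33 ± 0.19 (edgeR adjusted p = 0.000324).

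Kif13b, a carrier of membrane proteins and phosphoinositide cargo, rose from 13.2, 14.5, 15.8 and 14.8 CPM to 26.6, 37.7, 39.8 and 46.4 CPM. Kif13a, which moves endosomal membranes, rose from 15, 16.9, 16.8 and 14.8 CPM to 21.4, 34.7, 40.2 and 48.0 CPM. Neither gene overlapped between ages, and the log2 fold changes were 1.37 ± 0.16 and 1.19 ± 0.21 (edgeR adjusted p = 0.000121 and 0.00102). Kif16b, a motor of early endosomes, was at 3.49, 3.68, 3.86 and 2.69 CPM at 6m and at 3.83, 7.08, 6.52 and 8.46 CPM at 24m. It was called higher at 0.91 ± 0.23, but 24m replicate 1 lay inside the young range (edgeR adjusted p = 0.00643). With the trend over gene length removed the Kif16b call was lost (0.41, edgeR adjusted p = 0.0455, short of the fold threshold). Kif1c, which serves the Golgi and secretory vesicles, was abundant and did not pass, at 245 ± 29.9 CPM (SD, n = 4) in young and 231 ± 12.5 CPM in aged libraries. Its log2 fold change was -0.09 ± 0.10 (edgeR adjusted p = 0.457), and its sign turned to 0.13 with library totals and to 0.17 on quantile-normalized counts. With the trend over gene length removed it was -0.42 (edgeR adjusted p = 0.0134, short of the fold threshold).

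In the heterotrimeric kinesin-2, KIF3A pairs with either KIF3B or KIF3C, and both partners were called higher while Kif3a was not. Kif3b (chr2:153133325-153175310, plus strand, GRCm39) stood at 6.90, 10.5, 9.26 and 7.35 CPM at 6m and at 21.5, 26.7, 29.0 and 37.9 CPM at 24m. Kif3c stood at 104, 122, 112 and 115 CPM and at 192, 204, 215 and 219.7 CPM. For both genes the ages were fully separated, with log2 fold changes of 1.76 ± 0.19 and 0.88 ± 0.08 (edgeR adjusted p = 0.000104 and 4.71e-05). Of the exonic bases of Kif3c, 39.9% lie opposite other annotated transcripts. Kif3a, at 68.7 ± 6.40 CPM in young and 54.2 ± 8.66 CPM in aged libraries, gave -0.34 ± 0.12 (edgeR adjusted p = 0.035, short of the fold threshold). With the trend over gene length removed Kif3a was called lower (-0.66, edgeR adjusted p = 0.000354) and Kif3c lost its call (0.57). Kif17, a dendritic motor, was at 41.5 ± 2.66 and 42.3 ± 3.14 CPM. Its log2 value of 0.03 ± 0.09 (edgeR adjusted p = 0.796) turned sign when either 6m replicate 1 or 24m replicate 1 was left out.

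The KIF21 motors slow and steer microtubule growth in dendrites and axons as well as moving along them. Kif21b was at 13.2, 15, 15.3 and 14.8 CPM at 6m and at 24.3, 40.9, 47.2 and 50.9 CPM at 24m. All aged libraries were above all young ones, by 1.48 ± 0.20 in log2 (edgeR adjusted p = 0.000268). The more abundant Kif21a was at 73.2 ± 9.43 and 89.8 ± 26.0 CPM, and its 0.29 ± 0.20 did not pass (edgeR adjusted p = 0.217). That value rested on single aged libraries: it was 0.47 without 24m replicate 1 (edgeR adjusted p = 0.00794, short of the fold threshold) and 0.12 without 24m replicate 4 (edgeR adjusted p = 0.574).

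Of the 5 subunits of dynein 1, the inward motor, 2 were called higher and 1 lower, against 25.3% and 18.3% of all tested genes. Dync1h1, the heavy chain that holds the motor (chr12:110567821-110635470, plus strand, GRCm39), was at 829.5, 858, 844 and 927 CPM at 6m and at 699, 802, 886 and 895.5 CPM at 24m. The ages overlapped, and the log2 fold change of -0.07 ± 0.10 did not pass (edgeR adjusted p = 0.531). Its sign depended on processing: it was 0.38 on quantile-normalized counts with DESeq2 (adjusted p = 0.0261) and 0.01 without 24m replicate 1. With the trend over gene length removed it was -0.69, and then called lower (edgeR adjusted p = 0.000872).

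The intermediate chains bind dynactin, the cofactor that makes dynein processive. Dync1i2, the widely expressed form (chr2:71042017-71094479, plus strand, GRCm39), was at 217, 176, 186 and 188 CPM at 6m and at 113, 93.6, 87.5 and 93.4 CPM at 24m. Every aged library was below every young one, at -0.98 ± 0.10 in log2 (edgeR adjusted p = 7.72e-05), a fold of 0.505. Dync1i1, the neuronal form, was at 177 ± 10.4 and 169 ± 21.3 CPM, a change of -0.06 ± 0.10 that was not significant (edgeR adjusted p = 0.6), although it passed on adjusted p alone with the length trend removed (-0.51, edgeR adjusted p = 0.000498). The light intermediate chains, which grip cargo adaptors, both rose. Dync1li2 went from 18.8, 25.0, 23.4 and 18.3 CPM to 34.5, 53.9, 55.7 and 72.4 CPM, and Dync1li1 from 37.2, 46.2, 45.3 and 41.1 CPM to 59.6, 65.9, 72.6 and 80.8 CPM. Neither overlapped between ages, and the log2 fold changes were 1.34 ± 0.21 and 0.72 ± 0.11 (edgeR adjusted p = 0.00052 and 0.000598).

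The share of each gene in its subunit family was computed per library from counts per kilobase of exon. Shares restate the changes given above within each family and are no independent evidence for them. Of 17 shares, 16 did not overlap between ages (exact permutation test over 70 assignments, two-sided p = 0.0286 each, the smallest this design allows; adjusted p = 0.0304 over the 17). Shares of one family sum to 100% and are not independent. No such count was made for other gene families, so this one has no background to be read against. Of all tested genes taken singly, 28.4% had the aged libraries wholly above the young and 26.8% wholly below. Without division by length, or per kilobase of the canonical transcript, 15 of the 17 did not overlap, Klc4 then overlapping too. Kif5a made up 63.9%, 77.2%, 75.1% and 77.1% of kinesin-1 heavy chains at 6m and 87.3%, 86.6%, 88.8% and 87.2% at 24m. The young libraries thus varied more than the aged ones, and 6m replicate 1 was the lowest. Kif5b fell from 15.1% ± 3.78 (SD, n = 4) to 3.93% ± 0.746, and Kif5c from 11.5% ± 2.69 to 8.59% ± 0.554 (exact permutation p = 0.0286 for each). The exonic lengths of Kif5a, Kif5b and Kif5c are alike, at 11428, 12905 and 14239 bases.

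In the heterotrimeric kinesin-2 family Kif3a went from 35.3% ± 3.38 to 17.8% ± 1.32, Kif3b from 5.91% ± 0.940 to 12.7% ± 1.80 and Kif3c from 58.8% ± 3.06 to 69.5% ± 2.93. The same-family partners of KIF3A thus gained as a share of message while Kif3a lost. Within the KIF1 genes Kif1a went from 50.8% ± 3.18 to 68.1% ± 4.84 and Kif1b from 1.80% ± 0.295 to 6.66% ± 2.23, while Kif1c went from 47.4% ± 3.43 to 25.2% ± 6.79. Klc1 held 50.1% ± 0.531 of the light chains at 6m and 41.8% ± 1.86 at 24m, and Klc2 39.7% ± 0.285 and 51.0% ± 0.983. Which of these light chains led at 24m depended on the length used, whereas Klc1 led at 6m on both lengths. Per kilobase of the canonical transcript Klc1 held 68.1% ± 0.505 at 6m and 60.8% ± 1.85 at 24m, and Klc2 24.4% ± 0.135 and 33.5% ± 1.12. Kif21a declined against Kif21b from 85.7% ± 2.05 to 72.7% ± 2.51 of the pair. In dynein 1, Dync1i1 went from 53.5% ± 3.42 to 68.4% ± 4.94 of the intermediate chains, and Dync1li1 from 81.6% ± 1.22 to 74.5% ± 3.46 of the light intermediate chains. Per kilobase of the canonical transcript Dync1i1 held 38.8% ± 3.2 at 6m and 54.4% ± 5.54 at 24m, so the leading intermediate chain at 6m also depended on the length used. The exception was Kif13a, whose share of the KIF13 pair overlapped between ages (61.6% ± 1.67 and 58.1% ± 2.78; exact permutation p = 0.0857), and whether it led the pair again depended on the length (means of 46.4% at 6m and 42.8% at 24m per canonical transcript).

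**Figure D3:**
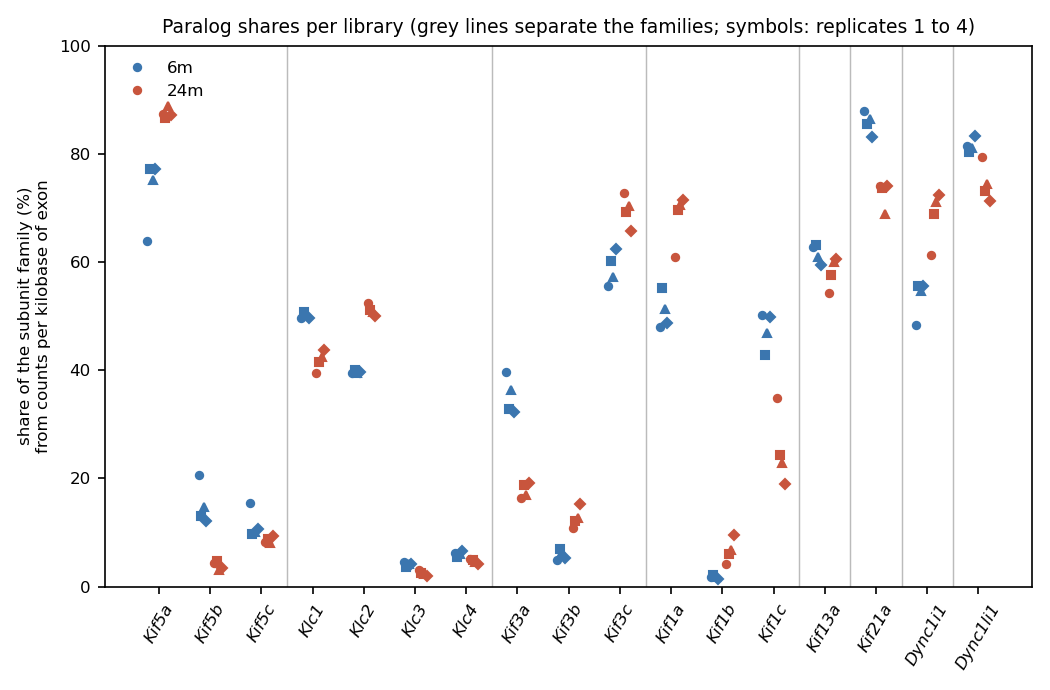
Share of each gene in its subunit family (percent of the family's counts per kilobase of exon, vertical axis) in each 6m (blue) and 24m (red) library, with grey lines between families; for a pair of genes a single member is drawn, since the other is the remainder. Blue and red points are separate in 16 of the 17 columns, with Kif13a the exception, and 24m replicate 1 (red circle) is the aged library nearest to the young ones for Kif1a, Kif1b, Kif1c, Dync1i1 and Dync1li1.

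Levels of different motors were compared per length, and their order depended on which length was used. Per kilobase of all exons, the levels at 24m were 119.3 ± 13.5 CPM for Kifc2, 117.3 ± 35.6 for Kif5a, 113.6 ± 13.4 for Klc2 and 92.7 ± 5.37 for Klc1 (SD, n = 4). Per kilobase of the canonical transcript they were 312.9 ± 95.0 CPM for Kif5a, 270.2 ± 15.7 for Klc1, 153.9 ± 17.4 for Kifc2 and 149.4 ± 17.6 for Klc2. Of these 4 genes, Kif5a and Klc1 have the longer exon sums, 11428 and 13487 bases against canonical transcripts of 4284 and 4628 bases. At 6m Klc1 was highest on both scales, at 112.6 ± 4.34 and 328 ± 12.7 CPM per kilobase, followed by Kifc2 at 101.3 ± 6.38 and 130.7 ± 8.24. Kifc2, a minus-end directed kinesin of dendrites, was itself not called, at 0.24 ± 0.10 in log2 (edgeR adjusted p = 0.063), except on quantile-normalized counts with DESeq2 (0.69, adjusted p = 3.21e-05), and Kifc3, a minus-end directed kinesin of the Golgi and cell junctions, gave -0.24 ± 0.09 (edgeR adjusted p = 0.0421). Over all members, 43 had a mean of at least 1 CPM and 13 lay under it, 9 of these being mitotic motors.

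Fold changes rose with exonic length. Spearman's rho between the 2 was 0.42 over 16677 tested genes with a known length, 0.32 over the 52 motors and 0.19 over the 24 transport motors, given as descriptions, since all points share the same 8 libraries. The motors are long: their median exonic length was 8271 bases and that of the transport motors 10205 bases, against 5768 bases over all tested genes. When the trend over length was removed with an offset per library, the median log2 fold change of the transport motors went from 0.53 to 0.29. On those values 9 transport motors were higher and 6 lower, against 20.2% and 19.0% of all tested genes. Of the 23 called motors, 14 moved by over 1.5 times in log2 under the offset, 11 of them motors called higher. Of the genes still called higher by edgeR, Kif1b was then at 2.1, Kif3b at 1.6, Kif5a at 0.97, Kif21b at 0.91, Dync1li2 at 0.89, Kif1a at 0.82, Kif13b at 0.80, Kif13a at 0.78, Dync1li1 at 0.74, Kif2a at 0.70 and Kif26b at 0.70. Among those called lower, the largest shifts were in Kif5b (-1.28), Dync1i2 (-1.48) and Dync2i1 (-1.38). Calls were lost for Kif5c (0.24), Kif16b (0.41), Kif3c (0.57), Kif11 (0.58) and Dync2i2 (-0.47). The 7 motors that became called lower were Dync2h1 (-1.13), Kif23 (-1.0), Klc1 (-0.81), Kif20b (-0.77), Kifc3 (-0.73), Dync1h1 (-0.69) and Kif3a (-0.66). What the length trend itself reflects was not tested.

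**Figure D4:**
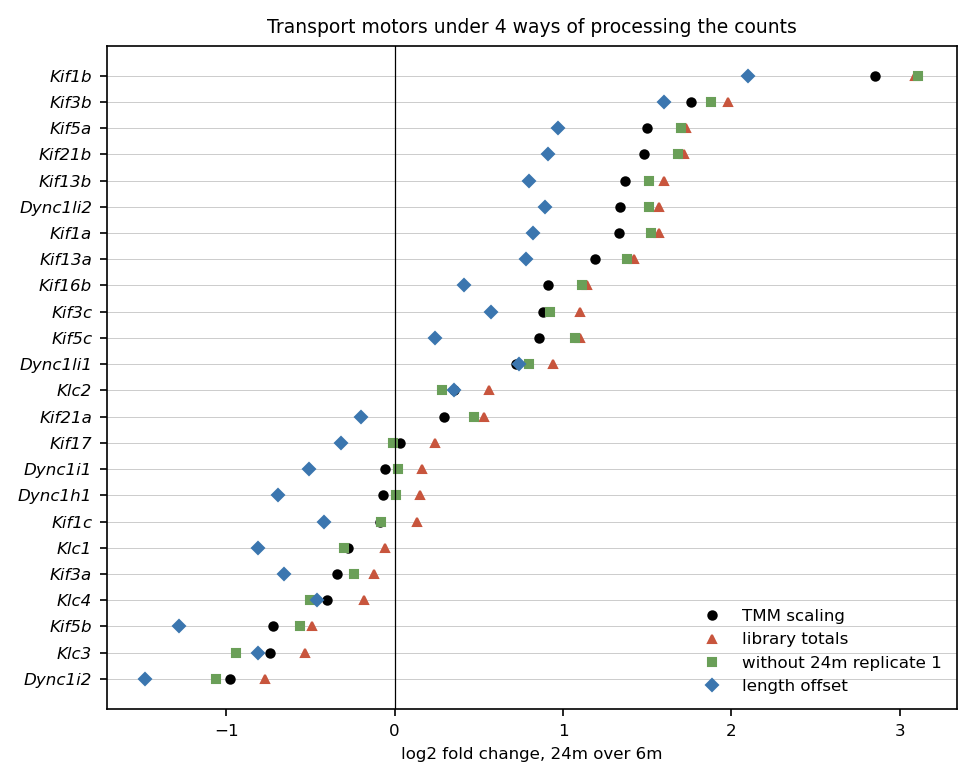
Log2 fold change (24m over 6m, horizontal axis) of the 24 transport motors under TMM scaling (black), library totals (red triangles), TMM without 24m replicate 1 (green squares) and a length offset (blue diamonds). The order of the genes is largely kept, from Kif1b at 2.1 to 3.11 down to Dync1i2 at -1.48 to -0.77 over these settings, while genes near 0 such as Dync1h1, Dync1i1 and Kif17 change sign.

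In 14 of the 15 motors called higher, 24m replicate 1 was the lowest of the aged libraries, and in 6 of the 8 called lower it was the highest of them. Every called motor other than Kif5b kept its call when that library was left out, and Kif1b then reached 3.11, Kif5a 1.70 and Kif1a 1.52 in log2. The summed neuronal markers overlapped between ages, as given above. Of the 6 markers, Syt1 was higher (1.55), Tubb3 lower (-0.63), and the other 4 were not called. Markers of astrocytes were higher in 3 of 4 genes (394 to 447 CPM at 6m and 815 to 983 CPM at 24m, summed), those of microglia in 2 of 4 (252 to 258 and 294 to 329 CPM) and those of oligodendrocyte precursors in 1 of 3 (37.1 to 40.3 and 50.7 to 75.6 CPM), none of these sums overlapping between ages. Of 5 oligodendrocyte markers 1 was higher and 0 lower (2719 to 3438 and 3071 to 3462 CPM). Endothelial markers gave 1 of 3 higher and 1 lower (31.9 to 49.3 and 22.0 to 32.6 CPM). Choroid plexus markers gave 1 of 3 higher and 0 lower, with 2 lower in DESeq2 (1766 to 3186 and 803 to 2237 CPM). The sums of these other lists overlapped between ages. Among all tested genes 25.3% were higher and 18.3% lower. The part of these cell types in the motor results was not tested. In bulk RNA of a hemisphere, fewer cells of a type and less RNA per cell cannot be told apart.

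Partners of the motors were counted from lists of their own, chosen with earlier results of these data known. The shares to read them against are 25.3% higher and 18.3% lower among all tested genes. The counts are those of the main fit, and the part of the length trend in them was not tested. Of 21 tested kinesin adaptors and regulators 12 were higher and 0 lower, with a median of 0.64 (edgeR; 1 lower at an unadjusted p under 0.05, 0 with DESeq2). These included the mitochondrial adaptors Trak1 (0.92) and Trak2 (1.69), the JNK scaffold Mapk8ip3 (1.00) and the lysosomal GTPase Arl8b (1.12). Kifap3, the adaptor that completes heterotrimeric kinesin-2, was at -0.29 and was not called, nor was its partner Kif3a. Of 10 dynein light chains, small subunits that dimerise the intermediate chains, 8 were lower and 0 higher (edgeR), with a median of -0.68. At an unadjusted p under 0.05 in edgeR and with DESeq2, 0 were higher too. Dynll1 (-0.96) and Dynlrb1 (-0.78) were the most abundant of these 8, and the still more abundant Dynll2 was at 0.15 and was not called. The 8 include near-identical Dynlt1 copies, between which reads cannot be assigned with certainty. Of 12 dynactin genes 4 were higher (33.3%) and 1 lower (8.33%). Of 12 dynein regulators 3 were higher (25.0%, as among all tested genes), including Pafah1b1, the LIS1 gene (1.06), and the adaptor Bicd2 (1.37), and 1 was lower.

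Mitotic motors were scarce. Of the 13 genes, 9 had mean levels of 0.0411 to 0.541 CPM, 12 were tested and Kif14 was too low to test. Kif22, a chromosome-arm kinesin (chr7:126626898-126641643, minus strand, GRCm39), was at 7.27, 7.11, 7.0 and 6.70 CPM at 6m and at 4.11, 3.22, 3.17 and 2.41 CPM at 24m. All aged libraries lay below the young, at -1.12 ± 0.16 in log2 (edgeR adjusted p = 0.000328). Kif20a, a kinesin of the cleavage furrow, was at 10.8, 9.63, 10.7 and 10.1 CPM at 6m and at 6.89, 6.38, 6.11 and 4.93 CPM at 24m. These too were separated, at -0.76 ± 0.12 (edgeR adjusted p = 0.000679), but the call was lost with library totals (-0.55). Moreover, 61.5% of its exonic bases overlap Brd8 and Cdc23 on the other strand and no source used here states how strand was treated in counting, so reads of those genes may be included. For Kif22 the overlapped fraction was 18%.

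Kif11, the kinesin that pushes spindle poles apart, was the only mitotic motor called higher. It had 9 to 12 counts per library at 6m and 19 to 37 at 24m, or 0.137, 0.141, 0.199 and 0.151 CPM against 0.309, 0.262, 0.228 and 0.424 CPM. The ages did not overlap, at 0.96 ± 0.28 in log2 (edgeR adjusted p = 0.0131). Counts were low, and a filter of at least 10 counts in every library removed the gene. The call was also lost with the length offset (0.58, edgeR adjusted p = 0.0935). Kif23, of the midbody, was at 0.469 ± 0.124 and 0.290 ± 0.0677 CPM and missed the adjusted p (-0.69 ± 0.28; edgeR adjusted p = 0.052), which it passed with DESeq2 size factors (edgeR adjusted p = 0.0498) and with the length offset. Kifc1 (-0.30) and its near-identical paralog Kifc5b (-0.22) were at a few CPM and overlapped between ages, and reads of the 2 genes cannot be assigned with certainty. The other 6 tested mitotic motors, Kif2c, Kif4, Kif15, Kif18a, Kif18b and Kif20b, had log2 fold changes of -0.41 to 0.22, none called in the main comparison, and all overlapped between ages.

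**Figure D5:**
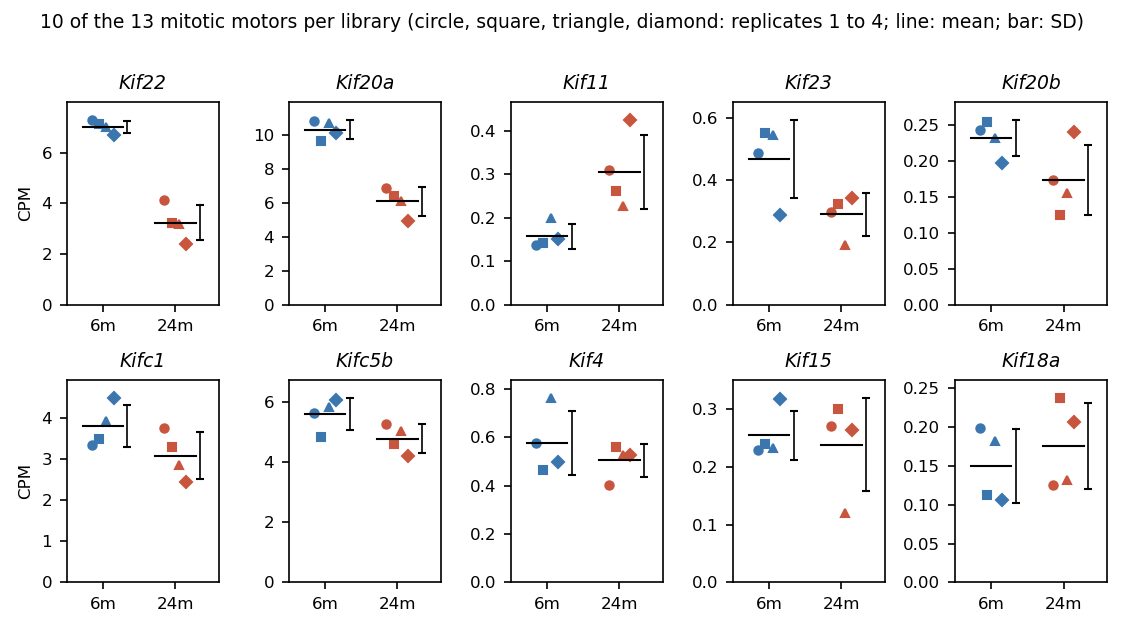
TMM-scaled level in CPM (vertical axis, from 0) of 10 of the 13 mitotic motors in each library of 6m (blue) and 24m (red), with the replicate as symbol, the mean as a line and the SD of 4 libraries as a bar. Kif22 and Kif20a lie lower at 24m and Kif11 higher without overlap, and in the other 7 panels the ages overlap, most of them under 1 CPM.

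Outside the symbol rule, 21 tested genes of the spindle and cell division were counted, from a list chosen with earlier results of these data known. Of these 8 were lower (38.1%, against 18.3% of all tested genes) and 0 higher, with a median of -0.38 (edgeR main fit). At an unadjusted p under 0.05 in edgeR 1 was higher, and with DESeq2 0 were. The part of the length trend in these counts was not tested. Plk1 (-0.95), Cenpe (-1.04) and Ccnb2 (-1.04) were among the 8, while Mki67 (-0.43) and Top2a (-0.07), also markers of proliferation, were not called. Levels were low. Means at 6m and 24m were 2.7 and 1.4 CPM for Plk1, 0.546 and 0.265 for Cenpe and 0.887 and 0.427 for Ccnb2. Those of Mki67 were 0.374 and 0.277 CPM, and those of Top2a 0.371 and 0.348 CPM. The summed level of the spindle list changed by a ratio of 0.903 (24m over 6m). The summed level of the 13 mitotic motors changed by a ratio of 0.663 (24m over 6m) and, without Kif20a and Kif22, the members called lower, by 0.848.

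Promoter windows of RefSeq (assembly GRCm38.p6, an older build than that of the counts), 250 bases before to 50 after the start site, were matched to 41 of the 56 genes in 46 windows, 12 of them mitotic. They were searched on both strands for the cell-cycle homology region (CHR, letters TTTGAA), the CCAAT box (CCAAT) and the GC box (GGGCGG), and neighbouring matches could share bases at their ends. TTTGAA occurred in 11 of 12 mitotic windows and 1 of 21 transport windows, against 17.9% of all 32851 windows. In 5 of those 11 mitotic windows a match lay wholly before the start site, against 16% of all windows, and in the other 6 the matches lay only at or after it. GGGCGG occurred in 6 of 12 and 17 of 21, against 35.7%, and CCAAT in 8 of 12 and 6 of 21, against 37.4%. Kif22, called lower, and Kif11, called higher, both held TTTGAA. A match is a description and not a bound site. To show examples of the matches before the start site, stretches of 30 bases around the motif are given 5′ to 3′ on the gene's strand, with the motif in capitals (TTCAAA is TTTGAA, and CCGCCC is GGGCGG, read on the other strand). The first 4 are mitotic motors and the last 2 transport motors.
Kif22, chr7:127042421-127042450, minus strand: ggggccccggtaaTTCAAAagagagaagcg
Kif11, chr19:37376351-37376380, plus strand: tcgtctccatttTTCAAAattgaggcgcgg
Kif15, chr9:122951050-122951079, plus strand: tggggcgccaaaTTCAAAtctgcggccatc
Kif2c, chr4:117178858-117178887, minus strand: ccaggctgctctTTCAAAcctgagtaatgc
Kif1b, chr4:149307710-149307739, minus strand: gccggcggcttcGGGCGGagtttggcgagc
Kif3b, chr2:153291303-153291332, plus strand: gcactccgggttCCGCCCctcggcgagctc
In Kif22, Kif11 and Kif15 the element began 17, 19 and 19 bases before the start site, and the motifs of Kif2c and Kif3b lay further upstream.

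Of the 10 cilium motors 2 were called lower, a share close to the 18.3% of all tested genes, and their median of -0.19 turned to 0.02 with library totals. Dync2i1, an intermediate chain of the dynein that returns cargo from the ciliary tip, was at 19.1, 17.7, 19.8 and 18.7 CPM at 6m and at 10.2, 10.6, 9.33 and 10.5 CPM at 24m. The values were tight within each age and far apart between them, at -0.89 ± 0.09 in log2 (edgeR adjusted p = 6.92e-05). Dync2i2, its partner chain, was at 77.7, 75.8, 74.9 and 75.6 CPM and at 58.5, 51.5, 49.2 and 43.2 CPM. It was also separated, but at -0.59 ± 0.10 it sat at the fold threshold (edgeR adjusted p = 0.000701) and lost its call when 6m replicate 1 (-0.58) was left out, and likewise for 24m replicate 3 (-0.57) and 24m replicate 4 (-0.52). Dync2h1, the heavy chain, passed on adjusted p alone, at -0.52 ± 0.13 (edgeR adjusted p = 0.00571), but was called lower without 24m replicate 4 (-0.62), on quantile-normalized counts with DESeq2 (-0.62) and with the length offset (-1.13, edgeR adjusted p = 3.04e-05). In these 3 settings Dync2i2 lost its call, so the 2 lower cilium motors were then Dync2i1 and Dync2h1. Dync2li1, the light intermediate chain, gave -0.18 and was not called.

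Of the ciliary kinesins, Kif19a, which shortens motile cilia, gave -0.35 ± 0.12 (edgeR adjusted p = 0.0278, short of the fold threshold). Kif9 (-0.20), Kif6 (0.24), Kif7, a regulator of Hedgehog signalling (-0.06), and Kif27 (-0.09) were not called, nor was Kif24, a centriolar kinesin (0.05). Of 5 ependymal markers 3 were lower at 24m, Ccdc153 (-1.26), Rsph1 (-1.12) and Tmem212 (-1.06), against 18.3% of all tested genes. The summed level of the 5 was 42.3 to 50.5 CPM at 6m and 26.5 to 39.5 CPM at 24m. Foxj1, the transcription factor of motile cilia, was at 0.21 and was not called. Their part in the cilium results was not tested.

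Among the remaining genes, Kif2a, which depolymerises microtubules and prunes axon branches, was at 9.42, 10.5, 11.3 and 6.11 CPM at 6m and at 10.9, 19.9, 18.4 and 27.1 CPM at 24m. It was called higher at 1.03 ± 0.27 (edgeR adjusted p = 0.00825), with 24m replicate 1 inside the young range and 41.1% of its exonic bases opposite Dimt1. Kif26b, an atypical kinesin, was at 3.73, 3.62, 3.60 and 4.65 CPM and at 5.0, 10, 10.4 and 14 CPM. These were separated, at 1.34 ± 0.27 (edgeR adjusted p = 0.00201). Kif28 gave the strongest decline of the tested motors in the main comparison. It went from 5.65, 4.55, 5.44 and 4.90 CPM to 1.82, 1.77, 1.52 and 1.47 CPM, at -1.64 ± 0.13 (edgeR adjusted p = 3.01e-05) and without overlap. With the trend over gene length removed it was at -1.46, and Dync1i2 at -1.48. Kif26a, the paralog of Kif26b, at 0.48 ± 0.18 (edgeR adjusted p = 0.0423), missed the fold threshold and passed it without 24m replicate 1 (0.64). Kif2b, a spindle depolymerase, had 0 counts in all 8 libraries, which allows up to 0.00489 CPM over all libraries (3 counts, counting error only), and Kif12 and Kif19b were too low to test.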

How the data were processed

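Gene expression was measured in brain hemispheres of 4 young adult (6m) and 4 aged (24m) mice. The authors trimmed reads with Trim Galore 0.4.11, aligned them to GRCm39 with HISAT2 2.1.0 and deposited whole-number counts per gene from featureCounts, not normalized or pooled. The strand setting and the treatment of multimapping reads were not given in the sources used here, which touches overlapping genes and near-identical paralogs. Library totals and the precision they give stand in the report.

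Of the 22430 listed genes, 22281 matched the GENCODE annotation of GRCm39 used for symbols, positions and exonic lengths (the union of exons). The motor genes and all gene lists were chosen with earlier results of these data known. Age was fitted by edgeR 4.0.16 under R 4.3.3 (quasi-likelihood, TMM factors, no other term) to genes with over 5 counts in 4 or more libraries, and p-values were adjusted over all 16730 of them. Standard errors were derived from the F statistic as log2 fold change divided by its root. CPM values were scaled with TMM factors. Levels and shares per canonical transcript, and the mitotic sum without Kif20a and Kif22, were added after seeing the data. Family shares were compared by an exact permutation test, two-sided. Every motor of at least 1 CPM was named, and called ones were given per library. Motors under 1 CPM were named where called, and the others after their values were seen.

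Alternatives were DESeq2 1.42.0 and its size factors, library totals, quantile normalization (limma 3.58.1) before DESeq2, other filters, each library left out, the replicate number as a block, and offsets for exonic length (natural splines with 5 degrees of freedom) and GC content. For the 24m against 6m comparison, a log2 change of 1 was simulated in 200 genes of at least 1 CPM among 16730. Of these 97% were recovered, with 16 others called. The simulation used a common dispersion and no deviating library, and it does not cover motors under 1 CPM. When a trend over length alone was simulated, 1547 genes were called without the offset.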

Additional observations from a re-analysis of the deposited data

Results flagged for a closer look

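In each age, the 43 motors of at least 1 CPM were searched for a library that lay far from the other 3 (gap over range, above Dixon's critical value at 0.05). Of 86 groups of 4 libraries, 5 held such a value, and chance alone gives about 1 in 20 groups. Of these, 3 came from 24m replicate 1, the deepest library. There Dync2li1 was highest at 23.2 CPM against 18.9 to 19.4 CPM in the other aged libraries, Kif19a highest at 7.09 CPM against 5.82 to 5.98 CPM, and Kif7 lowest at 4.72 CPM against 5.83 to 5.87 CPM. None of these motors was called. Among the young libraries, Kif5c was highest in 6m replicate 1, at 111.2 CPM against 83.0 to 86.9 CPM, and Kif26b was highest in 6m replicate 4, at 4.65 CPM against 3.60 to 3.73 CPM. Both were called higher at 24m.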

How the results depend on the processing

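Of 23 called motors, 15 kept their call and direction in every setting tried. Calls were lost for Kif5c, Kif16b and Kif11 with each length offset, for Kif3c with the length offset with or without the block, for Kif20a (-0.55) and Klc3 (-0.53) with library totals, for Kif5b with library totals (-0.49), quantile-normalized DESeq2 and without 24m replicate 1 (-0.56), and for Dync2i2, at the fold threshold, with 9 settings. The cause was not tested.

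Leaving out 1 library at a time gave 15 to 16 motors higher and 7 to 9 lower (median log2 fold change -0.10 to -0.02). Transport motors gave 12 higher and 2 to 3 lower (0.50 to 0.63), mitotic motors 1 higher and 2 to 3 lower (-0.40 to -0.19) and cilium motors 0 higher and 1 to 2 lower (-0.23 to -0.16). Shares without overlap numbered 16 to 17, and 15 both without division by length and with the length of the canonical transcript, the latter chosen after seeing the data.

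With library totals, which moved the median of all genes by 0.21, 4 motors were lower, among them 1 transport, 1 mitotic and 1 cilium motor, and the medians were 0.14 (all motors), 0.75 (transport), -0.05 (mitotic) and 0.02 (cilium). With a length offset, 14 motors were lower (6 transport, 4 mitotic) and 0 mitotic motors higher, and the medians were -0.26, 0.29, -0.38 and -0.40 in the same order. Length and GC offsets together gave 14 lower (6 transport, 4 mitotic), 0 mitotic motors higher and medians of -0.25, 0.28, -0.37 and -0.41. Quantile-normalized DESeq2 gave medians of 0.05 (all motors) and -0.39 (cilium). Requiring 10 counts in every library left 0 mitotic motors higher (median -0.36). Testing all genes without a filter left 1 cilium motor lower. On adjusted p alone 17 motors were higher and 14 lower. Among all genes, library totals called 32.6% higher and 10.4% lower, against 25.3% and 18.3%.

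Same-numbered libraries shared only their number (correlation of deviations -0.348 to 0.271 over 4 pairs, and -0.403 to 0.377 between other numbers). The replicate block gave 15 motors higher and 8 lower, and 12 and 3 among transport motors. The block with the length offset gave 11 higher and 13 lower (6 transport motors lower, 0 mitotic motors higher), with medians of -0.26 (all motors), 0.29 (transport), -0.37 (mitotic) and -0.40 (cilium).

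Signs turned for motors that were not called in the main comparison. With library totals these were Dync1h1 (0.15), Dync1i1 (0.16), Dync2li1 (0.03), Kif1c (0.13), Kif27 (0.13), Kif7 (0.16) and Kif9 (0.01), and with quantile-normalized DESeq2 Dync1h1 (0.38, adjusted p = 0.0261), Dync1i1 (0.18), Kif1c (0.17) and Klc1 (0.17, adjusted p = 0.0281). Leaving out 1 library gave -0.12 to 0.01 for Dync1h1, -0.14 to 0.02 for Dync1i1, -0.09 to 0.02 for Kif7 (in each the highest without 24m replicate 1) and -0.02 to 0.06 for Kif17 (negative without 6m replicate 1 and, at -0.01, without 24m replicate 1). With the length offset, the block with it, and length with GC, the values were 0.25, 0.25 and 0.17 for Dync2li1, -0.32, -0.33 and -0.26 for Kif17, -0.20, -0.21 and -0.25 for Kif21a, and -0.26, -0.26 and -0.29 for Kif6. Depth limits the 9 mitotic motors under 1 CPM, and 4 motors could not be tested.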
